A study of Mus musculus with 574 samples.

Results

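Neurons of the ventral midbrain with Nr4a2 were compared by whether they also held Slc17a6. Cells were chosen by their own values: at E11.5, E12.5 or E13.5, a value of 10 or more in RPKM (reads per kilobase of transcript, scaled to the library's total of mapped reads) for Nr4a2 and for Stmn2, a microtubule regulator of neurons, and under 10 for Barhl1, a transcription factor of the subthalamic lineage. The rule kept 97 of the 413 single cells of those stages, of 550 in all. Of these, 60 had Slc17a6 at an RPKM of at least 10 and 37 did not. All cells came from C57BL/6 mice heterozygous for Lmx1a-EGFP, a reporter read from the Lmx1a locus, and each was a separate Smart-seq2 library. The chosen cells numbered 20 (E11.5), 39 (E12.5) and 38 (E13.5), and 24 pools of 100 cells of the same strain, 6 in each combination of stage (E10.5, E13.5) and GFP class (positive, negative), served as separate libraries. No animal is named in the labels, so each stage is 1 sample of single cells and no test was made over cells. For the pools, p-values measure the spread between these libraries, which may be technical.

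Nr4a2 (Nurr1) is a nuclear receptor needed for midbrain dopamine neurons to form and to keep their transmitter genes. Slc17a6 encodes VGLUT2, which loads glutamate into synaptic vesicles and marks most glutamatergic neurons of the midbrain and diencephalon. Dopamine neurons make dopamine with Th and Ddc, load it with Slc18a2 and take it up again with Slc6a3, and Pitx3 is a transcription factor they use to mature. Some dopamine neurons are known to carry Slc17a6 as well.

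The upstream sequences of Slc17a6 and Th, which stand for the transmitters compared, and of Ddc, one of the genes with the largest differences between them, are shown because Nr4a2 is known to bind as a monomer to the element AAAGGTCA. Each holds the 250 bases before a RefSeq start site on the gene's strand, in build GRCm38.p6, and capitals mark a match on either strand. The windows are chr7:51621580-51621829 (plus strand) for the first Slc17a6 start site, chr7:142899996-142900245 (minus) for Th and chr11:11898145-11898394 (minus) for the first Ddc start site.
Slc17a6: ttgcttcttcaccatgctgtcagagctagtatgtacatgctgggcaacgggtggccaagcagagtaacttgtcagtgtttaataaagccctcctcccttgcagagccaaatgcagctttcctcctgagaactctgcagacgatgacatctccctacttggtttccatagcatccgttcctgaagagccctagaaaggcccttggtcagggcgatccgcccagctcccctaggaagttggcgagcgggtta
Th: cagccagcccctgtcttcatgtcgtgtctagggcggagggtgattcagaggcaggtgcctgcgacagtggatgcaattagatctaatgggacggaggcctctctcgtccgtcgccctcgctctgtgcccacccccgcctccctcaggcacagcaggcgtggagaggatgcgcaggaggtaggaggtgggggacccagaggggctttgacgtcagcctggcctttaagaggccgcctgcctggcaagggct
Ddc: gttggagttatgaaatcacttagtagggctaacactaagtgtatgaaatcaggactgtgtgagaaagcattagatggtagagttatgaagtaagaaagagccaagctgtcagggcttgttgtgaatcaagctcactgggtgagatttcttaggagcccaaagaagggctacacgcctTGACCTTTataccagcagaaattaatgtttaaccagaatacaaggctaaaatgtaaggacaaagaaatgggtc
The Ddc window held the element as its reverse complement, TGACCTTT, starting 73 bases before the start site. Among all 32851 windows of this length in the RefSeq table, 439 (1.34%) held it on either strand. The windows of Slc17a6 and Th did not hold these letters, nor did those of the other Slc17a6 and Ddc start sites, Pitx3 or Chst8. Of the 6 genes searched, 5 had an entry in the table.

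The share of Nr4a2 neurons with Slc17a6 was lower at each later stage. It was 16 of 20 cells at E11.5 (80%, exact 95% Clopper-Pearson interval 56.3 to 94.3) and 26 of 39 at E12.5 (66.7%, 49.8 to 80.9). For E13.5 it was 18 of 38 (47.4%, 30.98 to 64.2). These intervals, like all others here, cover counting error only, since the libraries carry no molecular identifiers and the labels no animals, and they overlap between all stages. At E12.5 the titles of the cells start with C or F, and the share was 12 of 15 (80%) under C and 14 of 24 (58.3%) under F. The meaning of the letters is not stated in the labels. No starting letter was shared between the stages, so stage and letter cannot be told apart in these shares.

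The Slc17a6 values that set the classes are given as a description. Slc17a6 ran from 14.5 to 645.2 RPKM with a median of 111.3 in the 60 cells with it, and from 0 to 8.05 with a median of 0.512 in the 37 without. Of the cells without it, 5 were listed at 0 and 8 reached 1 RPKM, and 8 of the cells with it lay under 30 RPKM. The nearest cells on either side of the other limits were at 3.41 and 13.1 RPKM for Nr4a2, 4.71 and 102.8 for Stmn2 and 4.96 and 20.3 for Barhl1. Median Nr4a2 was 748.2 RPKM with Slc17a6 and 466.1 without.

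**Figure D1:**
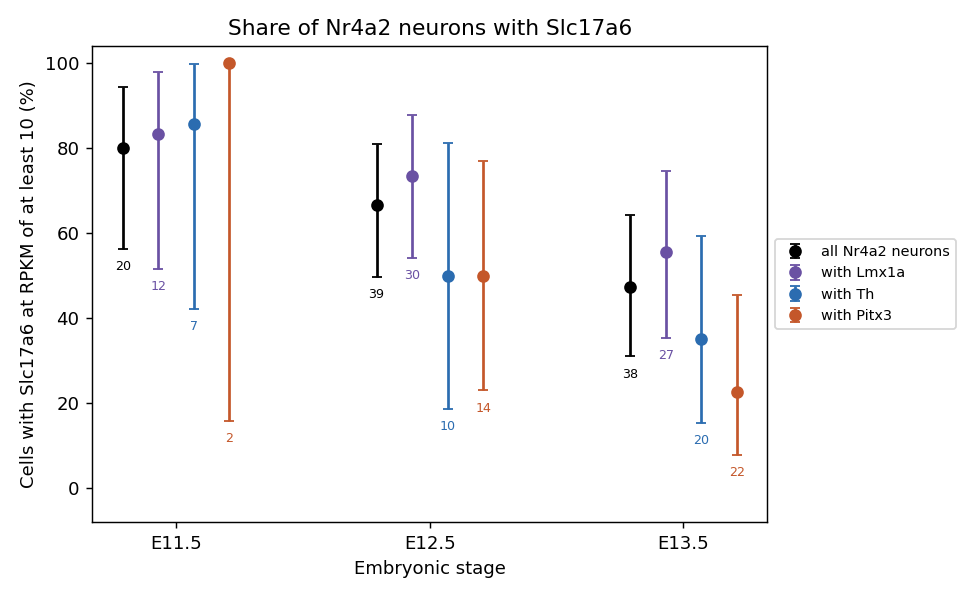
The share of Nr4a2 neurons with Slc17a6 at an RPKM of at least 10 (y axis, %) by embryonic stage (x axis), for all cells and for those with Lmx1a, Th or Pitx3, with exact 95% intervals that cover counting error only and the number of cells under each. Among Th cells the share was 85.7% at E11.5 and 35% at E13.5.

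A gene is called held by a cell from here on where it reached 10 RPKM. Th and Slc17a6 were found together in 18 of the 97 cells. Another 19 had Th alone, 42 had Slc17a6 alone and 18 had neither. Of the 37 cells with Th, 18 (48.6%, 31.9 to 65.6) thus had Slc17a6: 6 of 7 at E11.5, 5 of 10 at E12.5 and 7 of 20 at E13.5. The share was lower at later stages for Ddc cells too, with 7 of 7, 13 of 22 and 8 of 27. Of the 12 cells with Slc6a3, the plasma membrane dopamine transporter, 2 had Slc17a6.

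**Figure D2:**
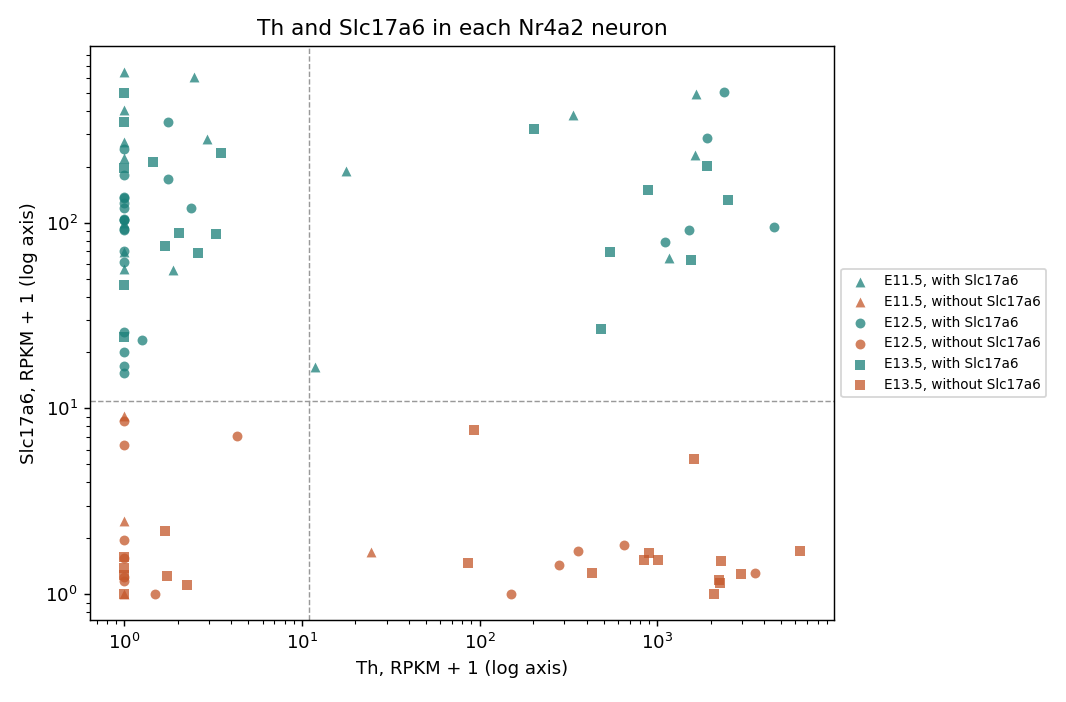
Slc17a6 (y axis) against Th (x axis) as RPKM + 1 on log scales in each of the 97 Nr4a2 neurons, with colour for the Slc17a6 class, shape for the stage and dashed lines at the limit of 10 RPKM. The upper right field, with both genes past the limit, holds 18 cells, and the lower left, with neither, another 18.

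Genes were compared by the difference of mean log2(RPKM + 1), with Slc17a6 minus without, taken inside each of the stages E12.5 and E13.5 and then averaged. E11.5 had only 4 cells without Slc17a6 and did not enter. A gene was past the fold when the averaged difference was at least 1 in size, 2-fold on this scale, with the same sign at both stages. Of 9255 genes that reached 10 RPKM in 10% or more of the cells of a class, 1019 (11%) were past it as higher with Slc17a6 and 218 (2.36%) as lower. The cells with Slc17a6 also had more genes at 1 RPKM or above, with medians of 4472.5 against 3427 at E12.5 and 4633 against 3947 at E13.5. The median difference of all genes tested was 0.24, and it was 0.02 with a linear term for that number of genes, under which 543 genes were past the fold as higher and 487 as lower. The fold carries no error estimate, so a single gene past it is not shown to differ, and differences are to be read against that median of 0.24.

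Genes of dopamine neurons were among those lower with Slc17a6. All 9 genes tested of a list for dopamine synthesis, storage, uptake and receptors had differences below 0, with a median of -1.95, and 5 of the 9 were past the fold as lower: Th, Ddc, Slc18a2, Slc6a3 and Gfra1. Of 9 dopamine transcription factors tested, 3 were past the fold as lower (Pitx3, Foxa2 and En1) and 1 as higher (Lmx1a), with a median of -0.30. The genes named for their large differences in the lower direction were Ddc, Pitx3, Bnc2, Gfra1, Tox2, Sez6l, Foxa2, Dlk1, Slc10a4, Olfm2 and Clcn7, between -3.42 and -2.14. Without the E12.5 cells whose titles start with C, Gfra1, Foxa2 and Dlk1 were no longer past the fold: their E12.5 differences became 0.17, 0.18 and 0.33, and their averages -1.79, -1.48 and -1.82.

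Ddc, the decarboxylase that makes dopamine from L-DOPA (chr11:11814101-11898144, minus strand, GENCODE annotation of GRCm38), ran at E13.5 from 0 to 1910 RPKM with a median of 5.02 in the 18 cells with Slc17a6, and from 0 to 2827 with a median of 977.2 in the 20 without. It was at an RPKM of at least 10 in 8 of 18 (44.4%, 21.5 to 69.2) and 19 of 20 (95%, 75.1 to 99.9). At E12.5 the counts were 13 of 26 and 9 of 13, with medians of 7.96 and 242.8. The ranges of the classes overlapped at both stages, and the difference of mean log2 values was -2.04 at E12.5 and -4.80 at E13.5.

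Th, tyrosine hydroxylase, the rate-limiting enzyme of dopamine synthesis, had a median of 1.94 RPKM (0 to 2505) with Slc17a6 and 633.0 (0 to 6396) without at E13.5, where 7 of 18 and 13 of 20 cells held it. At E12.5 5 of 26 and 5 of 13 cells held it, and its averaged difference was -1.95. With Barhl1 under 1 RPKM as the limit, the difference of Th was -0.85 and the E12.5 value 0.35, so it was no longer past the fold. Slc18a2, the vesicular monoamine transporter, was held at E13.5 by 7 of 18 and 15 of 20 cells. Slc6a3 was held by 1 of 18 cells with Slc17a6, at 28.5 RPKM, and by 8 of 20 without, at up to 1431 RPKM. At E12.5 alone, Slc18a2 and Slc6a3 differed by -0.74 and -0.94 and were not past the fold.

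Pitx3 (chr19:46135685-46148326, minus strand) was held by 14 of 60 cells with Slc17a6 (23.3%, 13.4 to 36.04) and 24 of 37 without (64.9%, 47.5 to 79.8). At E13.5 its median was 0.611 RPKM (0 to 1242) with Slc17a6 and 398.9 (0 to 2806) without, and the ranges overlapped. En1, a homeobox gene that dopamine neurons need to survive, was held by 15 of 60 and 22 of 37 cells and differed by -2.01 at E12.5 and -2.09 at E13.5. Foxa2, a forkhead factor that specifies floor plate and dopamine neurons, was held by 6 of 18 cells with Slc17a6 and 15 of 20 without at E13.5. Lmx1b and Foxa1, which dopamine neurons share with other floor plate neurons, had averaged differences of -0.54 and 0.09 and were not past the fold. Lmx1a, which drives the reporter, was held by 47 of 60 cells with Slc17a6 and 22 of 37 without, with a difference of 1.48.

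Bnc2 (basonuclin 2, a zinc finger protein) was held by 4 of 60 cells with Slc17a6 (6.67%, 1.85 to 16.2) and 16 of 37 without (43.2%, 27.1 to 60.5). At E13.5 it reached 57.4 RPKM in 1 of 18 cells with Slc17a6, and ran up to 1200 RPKM with a median of 149.5 in the 20 cells without. Gfra1, a receptor subunit for GDNF, was held at E13.5 by 10 of 18 and 19 of 20 cells. Slc10a4, a vesicle protein of monoamine and cholinergic neurons, was held by 3 of 18 and 12 of 20. For Dlk1, a Notch-like membrane protein, the difference was -0.44 at E12.5 and -3.98 at E13.5, so it lay mostly at the later stage.

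**Figure D3:**
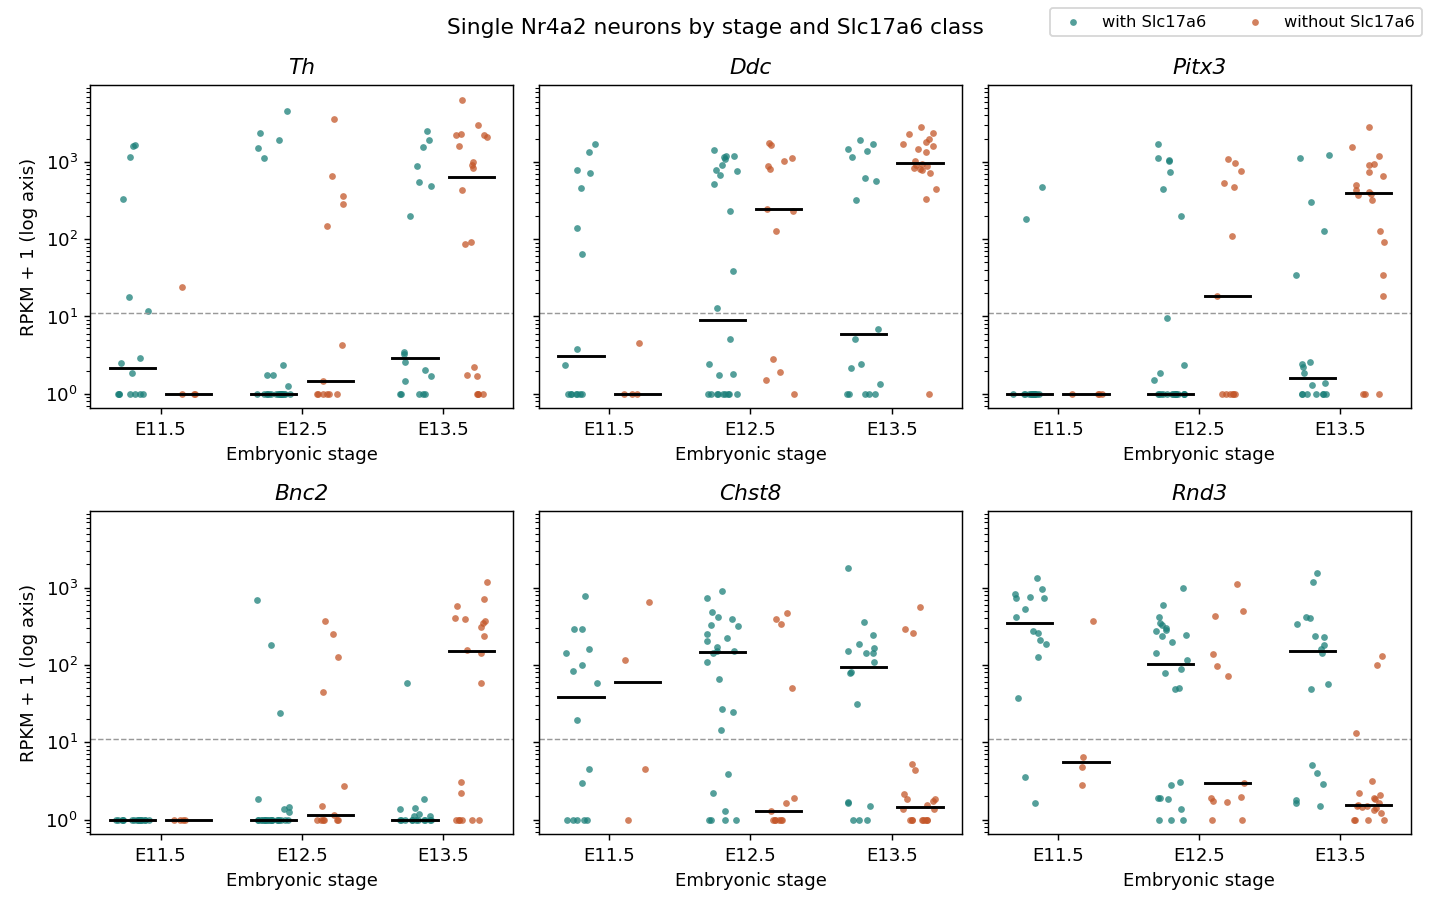
RPKM + 1 of 6 genes (y axis, log scale) in each Nr4a2 neuron by embryonic stage (x axis), 1 point per cell, with Slc17a6 in green and without in orange, a black line at the median and a dashed line at the limit of 10 RPKM. At E13.5 Ddc had a median of 5.02 RPKM with Slc17a6 and 977.2 without, and Chst8 had medians of 94.3 and 0.471.

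The 11 genes named for their large differences in the higher direction were Gm13835, Chst8, Chmp5, Rnd3, Cacna2d1, Polr2a, Spag7, Sybu, Prdx6, Serpini1 and Vps37b, between 3.30 and 2.56. In the following, counts out of 60 and 37 cells cover all stages. Chst8 (chr7:34674468-34812711, minus strand), a sulfotransferase of the Golgi that acts on N-acetylgalactosamine, was held by 40 of 60 cells with Slc17a6 (66.7%, 53.3 to 78.3) and 9 of 37 without (24.3%, 11.8 to 41.2). Its median at E13.5 was 94.3 RPKM with and 0.471 without. Cacna2d1, a subunit of voltage-gated calcium channels, was held by 43 of 60 and 12 of 37 cells. Rnd3, an atypical small GTPase of migrating neurons, was held by 43 of 60 and 10 of 37, with a difference of 1.21 at E12.5 and 4.41 at E13.5. Sybu (syntabulin, which links cargo to kinesin in axons) was held by 33 of 60 and 9 of 37. Gm13835 is annotated as a processed pseudogene and may share reads with a parent gene, which was not examined, so its 49 of 60 and 19 of 37 are uncertain. Polr2a, Chmp5, Vps37b and Prdx6 are widely expressed genes of transcription, membrane sorting and redox defence.

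**Figure D4:**
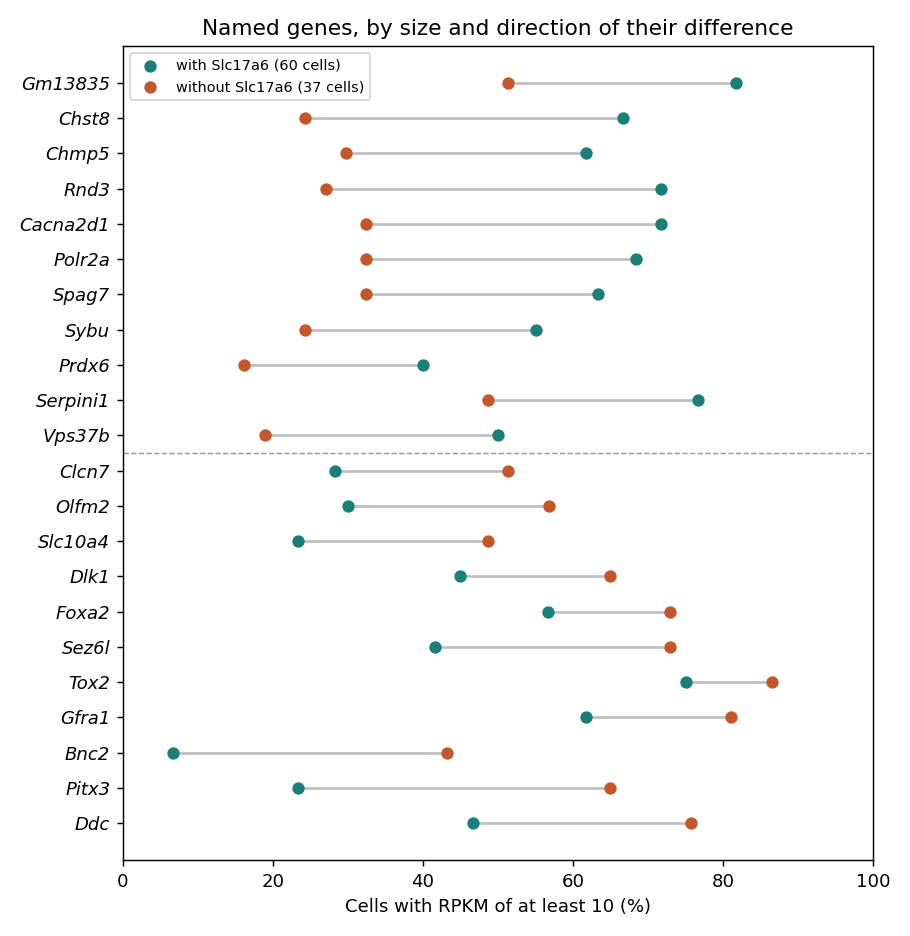
The percentage of cells with an RPKM of at least 10 (x axis) for the 11 genes named in each direction (y axis), with Slc17a6 in green (60 cells) and without in orange (37 cells), all stages together. Bnc2 stood at 6.67% and 43.2%, and Chst8 at 66.7% and 24.3%.

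All 38 cells with Pitx3 held Ddc, and 26 of them held Th. Slc17a6 was found in 14 of these 38 cells (36.8%, 21.8 to 54.01), so Pitx3 and Slc17a6 were not apart in every cell. The 60 cells with Slc17a6 divided into 14 with Pitx3 and 46 without it. Median Slc17a6 was 133.5 RPKM in the former (22.3 to 492.8) and 103.4 in the latter (14.5 to 645.2), and the ranges overlapped. Ddc was held by all 14 with Pitx3 and by 14 of the 46 without, Th by 10 and 8, and En1 by 10 and 5. Foxa2 was held by 12 of 14 and 22 of 46, Lmx1a by 12 and 35, and Chst8 by 10 and 30.

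Among the 37 cells with Th, pooled over stages because only 10 were of E12.5, the median of Th was 1342 RPKM in the 18 with Slc17a6 and 900.3 in the 19 without, a difference of 0.01. As these cells were chosen for Th, that value leaves out the cells in which Th was not held. Ddc was held by 16 of 18 and 17 of 19, a difference of -0.34. Pitx3 was held by 10 of 18 (55.6%, 30.8 to 78.5) and 16 of 19 (84.2%, 60.4 to 96.6), Slc6a3 by 1 of 18 and 8 of 19, Bnc2 by 1 of 18 and 9 of 19, and Slc10a4 by 6 of 18 and 13 of 19. Rnd3 was held by 13 of 18 and 3 of 19, and Chst8 by 10 of 18 and 3 of 19. The differences were 4.48 for Rnd3, -3.48 for Bnc2 and -3.41 for Slc6a3, and Rnd3 and Bnc2 had been named for their differences in cells that included these. Stage goes with class here, as 6 of the 7 Th cells at E11.5 and 7 of the 20 at E13.5 had Slc17a6, and its part in these values was not tested.

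Among the 69 cells with Lmx1a, the 47 with Slc17a6 held Ddc in 22 (46.8%, 32.1 to 61.9) and the 22 without in 19 (86.4%, 65.1 to 97.1). Pitx3 was held by 12 of 47 and 17 of 22, and Slc6a3 by 0 of 47 (exact interval 0 to 7.55%; a floor of 3 cells would be 6.38%) and 7 of 22. All 22 named genes kept their direction among these cells and were past the fold in values pooled over stages, though most of these cells had also entered their choice. EGFP was held by 25 of the 69 Lmx1a cells, so its absence in a cell did not show the absence of Lmx1a.

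At E11.5, where 16 cells had Slc17a6 and 4 did not, several genes stood the other way round. None of the 4 cells without Slc17a6 held Pitx3 or Ddc. With Slc17a6, 7 of 16 held Ddc and 2 held Pitx3. Of the 11 genes named as lower at the later stages, 0 were below 0 at E11.5, where Bnc2 was listed at 0 in all 20 cells.

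Other neuronal programmes were described by their counts, to be read against the 11% higher and 2.36% lower of all genes tested. Apart from the rule gene Slc17a6, 0 of 5 glutamatergic genes tested were past the fold. Slc17a7 and Slc17a8, the other vesicular glutamate transporters, reached 10 RPKM in no cell of either class. Gad1 and Gad2, the enzymes that make GABA, were held by 1 and 3 of 60 with Slc17a6 and 0 and 1 of 37 without. Of 14 pan-neuronal and axonal genes tested 2 were higher (Elavl3 and Elavl4), of 14 proneural and immature neuron genes 2 (Sox4 and Dcx) and of 15 synaptic genes 1 (Vamp2), with medians of -0.06, 0.55 and 0.15, counts near that share. Elavl4, at 1.05, was not past the fold with the linear term for the number of genes (0.52). Nor was it without the E12.5 cells whose titles start with C (0.84). Elavl3 was not past it in values pooled over all cells (0.87). Vamp2, a vesicle fusion protein, had a difference of 1.80 in the E12.5 cells whose titles start with F and 0.13 at E13.5, and it was not past the fold in these alone. Tubb3 was held by every cell of both classes.

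For surface and guidance genes, the counts of higher genes were near the 11% of all genes tested and are no result about these families. The counts of lower genes are to be read against 2.36% of all genes tested. They were above that share for axon guidance and cadherin genes, but small, and this was not tested. Of 19 axon guidance genes tested 2 were higher (Nrp2 and Epha7) and 3 lower (Robo2, Plxna4 and Epha5, the last not without the E12.5 cells whose titles start with C). Epha7, an ephrin receptor, was held by 31.7% of the cells with Slc17a6 and 2.70% of those without, and Robo2, a Slit receptor, by 26.7% and 56.8%. Of 14 cadherin and protocadherin genes 2 were higher (Cdh2 and Tenm2) and 1 lower (Cdh13, again not without those cells), and of 11 glutamate and GABA receptor genes 1 was higher (Grik2). Grik2, a kainate receptor subunit, was held by 41.7% and 10.8%. Foxp1, a forkhead factor of several neuron types, had a difference of 0.997 and was held by 53.3% and 35.1%.

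Except for red blood cell genes, markers of cell types outside the neural lineage and of serotonergic and motor neurons were scarce in both classes. No cell held any of 8 microglial genes. Endothelial genes were held by 2 of 60 and 0 of 37 cells, mesenchymal genes by 1 and 1, serotonergic genes by 0 and 1, motor neuron genes by 1 and 1, and red blood cell genes by 9 and 6. The summed level of each of these lists had a median of 0 RPKM in both classes, with highest values of 133.7 with Slc17a6 and 8.63 without for endothelium, 112.4 and 120.2 for red blood cells, 73.6 and 369.6 for motor neurons, 59.5 and 49.8 for mesenchyme and 7.56 and 67.1 for serotonergic neurons. Genes of progenitors and of neighbouring neuron types were more frequent. At least 1 of 12 progenitor genes was held by 35 of 60 and 21 of 37 cells, with Vim, an intermediate filament gene, in 28 and 18, and at least 1 of 12 cell cycle genes by 21 and 11, with Pcna, a replication clamp, in 14 and 10. Genes of the red nucleus and basal plate were held by 20 and 9 cells, and genes of the diencephalon and hypothalamus by 12 and 4. Of the 6 genes of the subthalamic list, only 3 were held by any of the chosen cells. At least 1 of them was held by 51 and 31 cells, with Foxp2, a forkhead factor, in 45 and 29. The summed level of that list had a median of 655.2 RPKM (0.699 to 2554) with Slc17a6 and 580.3 (0 to 4420) without. The part of these cells in the differences was not tested.

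Neurons excluded by the rule gave a point of comparison within the same stages. Among 100 neurons with Barhl1, 67 (67%, 56.9 to 76.1) held Slc17a6, 66 Lmx1a and 48 Chst8, while 2 held Pitx3, 12 Ddc and 0 Bnc2. Of these 100, 54 also held Nr4a2 and 75 Rnd3. Among the neurons with neither Nr4a2 nor Barhl1, 40 (36.7%, 27.7 to 46.5) held Slc17a6 and 1 (0.917%, 0.0232 to 5.01) held Pitx3. In this last group 70 (64.2%) held Rnd3 and 25 (22.9%) Chst8.

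The pools were independent of the choice of cells and showed where the named genes lie. They were compared with limma on log2(RPKM + 1), and calls were made at an adjusted p under 0.05. In bulk samples fewer cells of a type and less RNA per cell cannot be told apart. Among all 15872 features tested, reporter included, 3.42% were higher and 3.74% lower in GFP positive than in GFP negative pools at E13.5. Of the 11 genes named as lower with Slc17a6, 7 were higher in GFP positive pools (Ddc, Pitx3, Bnc2, Gfra1, Tox2, Foxa2 and Slc10a4) and 0 lower, with a median difference of 1.02 against -0.03 for all features. Of the 11 named as higher with Slc17a6, 3 were higher (Chst8, Cacna2d1 and Sybu) and 0 lower, with a median of 0.20. Some genes from either side of the division by Slc17a6 were thus higher in the pools that carry the reporter.

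Pitx3 lay between 49.2 and 127.3 RPKM in the 6 GFP positive pools, and in each of the 6 GFP negative ones it was listed at 0, so the groups did not overlap (limma, adjusted p = 1.7e-14). Ddc lay between 119.6 and 267.3 RPKM (median 187.0) in GFP positive pools and 19.5 and 70.4 (47.8) in GFP negative ones, a log2 difference of 2.15 ± 0.30 (SE, limma, adjusted p = 1.9e-05) with no overlap. Chst8 was higher by 1.17 ± 0.29 (limma, adjusted p = 0.011), with 56.3 to 84.2 RPKM against 17.2 to 46.05. Slc17a6 itself lay between 64.3 and 116.9 RPKM (75.7) in GFP positive pools and 38.1 and 52.02 (46.9) in GFP negative ones. Its groups did not overlap, yet its difference of 0.77 ± 0.34 missed the threshold (limma, adjusted p = 0.19). That SE comes from the fit of all pools together, those of E10.5 included. In the GFP positive pools of E10.5, Slc17a6 lay between 1.24 and 8.63 RPKM. The miss therefore does not show equal levels at E13.5. Mean Slc17a6 there was 81.4 RPKM (SD 18.95) in GFP positive pools and 46.8 (SD 5.14) in GFP negative ones. A fit of the 12 E13.5 pools alone was kept only as counts of called genes. The part of the E10.5 pools in the SE of Slc17a6 was thus not tested.

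Between E10.5 and E13.5 in GFP positive pools, 22.1% of all features tested rose and 29.6% fell. Of the 11 genes named as lower with Slc17a6, 10 rose and 1 fell (Foxa2, by 0.81 ± 0.19), with a median difference of 3.26 against -0.14 for all features, and of the 11 named as higher, 6 rose and 4 fell. Slc17a6 rose by 4.27 ± 0.34 (limma, adjusted p = 5.8e-11), from a median of 2.57 RPKM to 75.7.

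**Figure D5:**
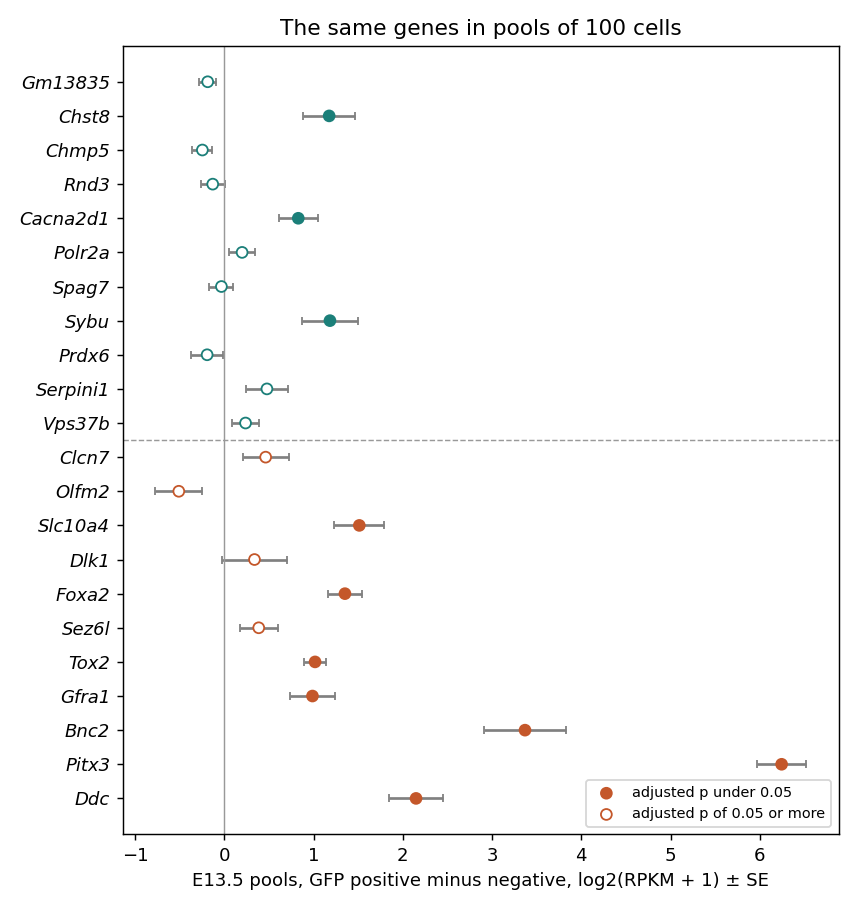
Difference of mean log2(RPKM + 1) between the 6 GFP positive and 6 GFP negative pools at E13.5 (x axis, bars are the SE of the limma fit) for the 22 named genes (y axis), in green for genes higher in cells with Slc17a6 and orange for genes lower, filled where the adjusted p is under 0.05. Pitx3 stood furthest to the right, at 6.24.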

How the data were processed

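Each cell was a Smart-seq2 library finished with Nextera XT, per the labels' protocols. Reads were aligned with STAR 2.3.0 to mm10, per the submitters' processing notes. How reads were counted, with which annotation and filters, is not given in the sources. The authors deposited the cells as log2 values of RPKM + 0.001, turned back to RPKM here, and the pools as RPKM. No table holds counts of reads. Depths estimated from the steps between low values (0.394 to 6.62 M reads per cell, medians 1.56 with Slc17a6 and 1.59 without) are rough: a median of 21.4% of low values came within 0.05 of whole reads, where chance gives 10%. Inside each stage the median depth was higher with Slc17a6. It was 0.742 against 0.619 M reads at E11.5, 1.69 against 1.48 at E12.5 and 1.78 against 1.72 at E13.5. The E11.5 cells were thus the shallowest, and the part of depth in the differences was not tested.

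The cells, lists and tests were chosen with earlier results of these data known. Stage and GFP class came from the labels. Differences of class means of log2(RPKM + 1) were taken within stages holding 10 or more cells of both classes and averaged over the 2 stages. Named genes were taken from the 12 with the largest differences in each direction among genes past the fold held by at least 25% of the higher class, the 4 rule genes left out, plus listed genes by role. A gene is called held by a cell at 10 RPKM or more. The fit of the pools used limma 3.58.1 under R 4.3.3 (4 group means, all 24 pools, variances with a trend, Benjamini-Hochberg adjustment) over features reaching 1 RPKM in 6 or more pools. Both computations were tested on simulated data, in which the changes set in the cells were larger than the 2-fold limit. Alternatives covered the pseudocount, filters, limits, scaling, stages, title letters and the number of genes detected. Some genes are not reported here, and they were left out of the lists and of the named genes, which leaves 11 in each direction.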

Additional observations from a re-analysis of the deposited data

Results flagged for a closer look

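Among the named genes, 66 groups of 6 pools were examined for a library far from the others, and chance flags about 1 in 20. Chmp5 had 1 E13.5 GFP negative pool at 59.9 RPKM, below a group median of 88.2. Rnd3 had 1 E13.5 GFP positive pool at 414.2 RPKM, above a median of 281.1. Vps37b had 1 E13.5 GFP negative pool at 37.2 RPKM, above a median of 26.9.

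At E11.5 the difference between cells with and without Slc17a6 had the opposite sign to E12.5 and E13.5 for 7 named genes, with a size of at least 1, and the change between stages was not tested. It was -2.28 for Cacna2d1 and -1.62 for Sybu, which were higher with Slc17a6 later. It was 3.54 for Ddc, 2.40 for Tox2, 1.21 for Foxa2, 1.20 for Gfra1 and 1.03 for Pitx3, which were lower later. Only 4 cells without Slc17a6 stand behind each of these values.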

How the results depend on the processing

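The share of genes past the fold depended on the processing. From 11.01% higher and 2.36% lower of the genes tested, it went to 21.98% and 5.58% with a pseudocount of 0.1, to 1.70% and 0.367% with a pseudocount of 10, to 19.2% and 7.09% without E12.5, to 18.3% and 7.90% without E13.5, to 18.8% and 6.91% without the cells whose titles start with F, to 5.87% and 5.26% with a linear term for the number of genes at 1 RPKM or above, and to 21.8% and 14.9% in cells with 3000 to 5000 such genes. Where a stage, the titles with F or the cells outside that range were left out, 1 stage remained, so no agreement between stages was asked for. The linear term and the range of genes were chosen after seeing the data. The filter on genes left the number past the fold within 1.5 times but set the share: it was 3.998% and 0.855% of 25486 genes with no filter and 17.3% and 3.42% of 5271 with a filter of 25% of cells, so the 11% and 2.36% hold for the filter used. Of 396 values of named genes under an alternative, 357 moved by no more than the SD between the differences of the 2 stages, 39 moved further and 0 changed sign in the average. Many of the 357 could not have moved further. The filters on genes and the removal of E11.5 leave a gene's difference unchanged. Leaving out E12.5, E13.5 or the titles with F keeps 1 of the 2 stages, which cannot move a value past that SD. Weighting the letters equally repeats the values without the titles with C. By the share of cells that held a gene, in place of mean log2 values, 11 of the 11 genes named as higher kept their direction at both stages. Of the 11 named as lower, 10 did. Calls were also lost: of the 45 named or listed genes past the fold, 15 were no longer past it with a pseudocount of 10 (Lmx1a and En1 among them), 10 without E13.5 (Slc18a2 and Slc6a3 among them), and 8 without the titles with C or with the letters weighted equally (Gfra1, Foxa2 and Dlk1 among them). Th was not past it with Barhl1 under 1 RPKM, Clcn7 not without E12.5, and Vamp2 changed sign, to -0.16, in cells with 3000 to 5000 genes. Under the other alternatives run, 0 to 7 of the 45 were no longer past it. The share of Th cells with Slc17a6 lay between 44.1% and 60.9%, and counts of called genes in the pools stayed within 1.5 times those given. The comparison in cells with at least 4000 genes and the stage-averaged comparison of Th cells were not run, because no stage kept 10 cells in both classes. No paired analysis was possible because the titles of the pools carry running numbers that no groups share, and the cells were not tested.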
